A study of Mus musculus with 2 samples.

Results

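Windows of the mouse genome that were rich in HM/MH in one library of E14 mouse embryonic stem cells are described here. At an HM/MH site, a CpG carries 5-hydroxymethylcytosine (hmC) on one strand and 5-methylcytosine (mC) on the other, with HM for hmC on the plus strand and MH for hmC on the minus strand. The windows were chosen by their own calls in replicate 2: a window is 1 kb of an autosome, and those with at least 4 CpG sites, at least 25 calls and HM plus MH at 10% or more of all calls were taken. Of 389554 windows with the minimum of sites and calls, 18093 passed, which is 4.64%. Replicate 2 was used for the choice because it miscalled MM as HM/MH less often. The HM/MH level of these windows in replicate 2 is therefore a description, and every other state in replicate 2 shares its calls with the choice. Replicate 1 did not enter the choice, and 17967 of the 18093 windows had the minimum of sites and calls there, while 126 did not. The other windows with the minimum in both replicates numbered 369469.

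SCoTCH-seq tethers the strands of a DNA fragment with a hairpin, so that each read pair reports the state of a CpG on both strands, as 1 of 9 states built from C, mC (M) and hmC (H). The DNA came from 2 passages of E14, an established line of pluripotent cells, grown in medium with serum and LIF on gelatin and sampled in 1 condition. The labels give 10% FBS and the paper's methods another share. No second condition exists, so no test between samples was possible, and what follows compares windows within a library.

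Cytosine methylation at CpGs is copied onto the new strand after DNA replication by DNMT1, and TET dioxygenases oxidize mC to hmC. An HM/MH site holds hmC opposite mC, whereas an HC/CH site holds hmC opposite an unmodified C, and the state alone does not tell in which order the bases were modified. hmC is not copied at replication, and asymmetric states are known to be common in embryonic stem cells. MM, CC and MC/CM stand for CpGs that are methylated on both strands, unmodified on both strands or methylated on one strand.

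Sequences of 9 windows are shown, each the 300 bases with the most HM/MH calls of replicate 2 in that window. They come from the plus strand of GRCm38 and run 5′ to 3′, and CpGs with an HM/MH call in replicate 2 are in capitals. A CpG in lower case had no HM/MH call in replicate 2 or was not covered there. The first 6 had the highest lower confidence bounds of HM/MH in replicate 2, and they show how few CpGs carried the calls. The last 3 had the smallest p-values in replicate 1 among the windows, and they were picked after their values were seen.
Window w1, chr10:14784155-14784454, intergenic: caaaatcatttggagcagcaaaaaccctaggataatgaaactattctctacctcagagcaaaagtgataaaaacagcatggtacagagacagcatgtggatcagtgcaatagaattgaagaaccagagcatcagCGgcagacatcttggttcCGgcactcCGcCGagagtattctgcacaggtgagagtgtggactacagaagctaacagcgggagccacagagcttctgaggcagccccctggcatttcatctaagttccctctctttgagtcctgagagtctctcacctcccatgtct
Window w2, chr1:41271057-41271356, intergenic: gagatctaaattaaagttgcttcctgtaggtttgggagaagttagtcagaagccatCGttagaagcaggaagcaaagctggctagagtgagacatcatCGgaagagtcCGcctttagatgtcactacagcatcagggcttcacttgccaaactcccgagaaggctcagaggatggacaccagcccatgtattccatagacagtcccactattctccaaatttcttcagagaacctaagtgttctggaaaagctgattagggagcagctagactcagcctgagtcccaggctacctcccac
Window w3, chr14:120246355-120246654, intergenic: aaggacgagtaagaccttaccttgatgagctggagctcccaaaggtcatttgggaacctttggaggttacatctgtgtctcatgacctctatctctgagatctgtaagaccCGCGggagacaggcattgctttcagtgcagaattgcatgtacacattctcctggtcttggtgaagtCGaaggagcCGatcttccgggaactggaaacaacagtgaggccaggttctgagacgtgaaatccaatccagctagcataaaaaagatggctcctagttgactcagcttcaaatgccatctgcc
Window w4, chr12:33020121-33020420, intergenic: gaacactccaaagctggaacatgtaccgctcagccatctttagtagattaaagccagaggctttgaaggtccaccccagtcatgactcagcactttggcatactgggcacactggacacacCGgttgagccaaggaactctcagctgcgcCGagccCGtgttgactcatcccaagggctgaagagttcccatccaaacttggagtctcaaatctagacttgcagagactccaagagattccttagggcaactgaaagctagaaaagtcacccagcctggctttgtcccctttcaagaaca
Window w5, chr1:90526673-90526972, intergenic: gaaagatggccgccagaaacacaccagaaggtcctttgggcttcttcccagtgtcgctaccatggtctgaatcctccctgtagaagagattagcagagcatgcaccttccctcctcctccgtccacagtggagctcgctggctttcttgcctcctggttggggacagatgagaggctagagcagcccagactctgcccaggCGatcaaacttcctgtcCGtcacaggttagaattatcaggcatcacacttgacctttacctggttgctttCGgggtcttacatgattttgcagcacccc
Window w6, chr6:72091037-72091336, intergenic: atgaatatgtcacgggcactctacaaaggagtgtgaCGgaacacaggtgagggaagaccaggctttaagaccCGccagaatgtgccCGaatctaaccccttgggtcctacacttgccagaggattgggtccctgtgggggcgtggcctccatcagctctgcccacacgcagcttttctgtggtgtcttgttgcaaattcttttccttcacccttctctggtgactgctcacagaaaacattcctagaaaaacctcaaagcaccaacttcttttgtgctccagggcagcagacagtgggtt
Window r1, chr1:182023511-182023810, intergenic: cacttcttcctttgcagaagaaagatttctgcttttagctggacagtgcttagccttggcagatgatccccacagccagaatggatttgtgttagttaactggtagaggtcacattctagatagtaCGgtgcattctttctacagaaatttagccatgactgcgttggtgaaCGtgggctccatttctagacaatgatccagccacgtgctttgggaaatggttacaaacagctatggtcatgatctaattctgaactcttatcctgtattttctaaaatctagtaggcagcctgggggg
Window r2, chr1:131129635-131129934, exon of Dyrk3: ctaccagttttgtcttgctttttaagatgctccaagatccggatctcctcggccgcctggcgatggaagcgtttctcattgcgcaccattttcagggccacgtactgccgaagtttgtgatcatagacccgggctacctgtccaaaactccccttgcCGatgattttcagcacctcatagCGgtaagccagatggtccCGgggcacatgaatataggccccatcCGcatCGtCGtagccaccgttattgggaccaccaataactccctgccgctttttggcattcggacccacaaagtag
Window r3, chr11:107323244-107323543, first intron of Pitpnc1: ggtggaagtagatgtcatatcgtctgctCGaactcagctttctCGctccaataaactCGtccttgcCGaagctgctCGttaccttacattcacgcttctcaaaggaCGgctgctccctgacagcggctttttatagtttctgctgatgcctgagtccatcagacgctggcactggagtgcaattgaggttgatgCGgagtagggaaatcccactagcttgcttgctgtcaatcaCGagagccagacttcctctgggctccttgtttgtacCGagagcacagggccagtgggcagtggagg

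In the stretch of window w1, 4 of 5 CpGs were covered in replicate 2, and these 4 held 13 HM/MH calls, close enough together to lie on 1 fragment. In r3, 11 of 13 CpGs were covered and 9 of those held 11 HM/MH calls, spread over most of the stretch. Of the 18 CpGs in the r2 stretch, 7 were covered in replicate 2 and 6 of those held an HM/MH call. Fragments were shorter than such a stretch, and calls at neighbouring CpGs could come from the same molecule.

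Replicate 1 held 13366464 autosomal CpG sites with a mean depth of 10.6 calls, and replicate 2 held 4882356 sites with a mean depth of 6.37. Over all autosomal calls, HM/MH made up 4.01% in replicate 1 and 2.47% in replicate 2, and HC/CH made up 4.07% and 3.67%. On synthetic duplexes of known state, 4.51% of the calls at MM sites were HM or MH in replicate 1, as opposed to 0.467% for replicate 2. A level of HM/MH in replicate 1 therefore includes miscalled MM, and levels corrected with these call rates are given where they are named. In replicate 2, HC/CH sites gave HM or MH calls at a rate of 4.02%, and of 1.12% in replicate 1. As a check of the cell type, promoters of Pou5f1, Sox2 and Zfp42, which pluripotent cells keep unmethylated, were CC in 97.5% to 100.0% of calls in both replicates. Those of Nanog and Esrrb were CC in 78.4% to 86.2% of calls.

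In replicate 2, the HM/MH level of the windows rich in HM/MH ran from 10.0% to 40.6%, with a median of 11.8% and an interquartile range of 10.7% to 13.9%. Most windows passed on few calls: 5290 of them (29.2%) held 3 HM/MH calls and 5520 held 4, while 311 held 10 or more. The calls came from 3 or more CpG sites in 11169 windows, from 2 sites in 5990 and from a single site in 934. HM and MH were about equally frequent, with HM at 50.1% of the HM and MH calls, and 14276 windows held both forms. Summed over the windows, HM/MH was 12.7%, HC/CH 7.07%, MM 51.7%, CC 17.01% and MC/CM 11.1% of the replicate 2 calls. Levels of 15% or more were seen in 3158 windows, of 20% or more in 577 and of 30% or more in 16. The share of windows that passed fell with the number of calls, from 6.09% of the windows with 25 to 29 calls to 0.645% of those with 100 or more.

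The same windows held more HM/MH than other windows in replicate 1, though much less than the level that chose them. Since they were chosen for a high level on few calls, that lower level goes with the choice and is no result. Summed over the 17967 windows, HM/MH was 5.61% of replicate 1 calls (95% Clopper-Pearson interval 5.58 to 5.64), against 4.02% in the other windows. Corrected for miscalls, these levels were 3.19% and 1.58%, a ratio of 2.02. The ratio depends on the correction, which gave the other windows a level of 1.978% when applied to replicate 2. The median window had 5.26% HM/MH in replicate 1, against 3.88% among other windows. The windows lay above the others on 19 of 19 autosomes, by 1.41 to 1.82 percentage points. No HM/MH call was found in replicate 1 in 464 of the windows (2.58%), compared with 7.62% of the other windows. A level of 10% or more was seen again in 1440 windows (8.02%), where 3.32% of all windows with the minimum in both replicates reached it. The distributions overlapped widely, and 66.3% of the windows lay above the replicate 1 rate of 4.09%, against 46.8% of the others.

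HC/CH was also higher in these windows in replicate 1, by more percentage points than HM/MH. HC/CH made up 7.39% of replicate 1 calls in the windows (95% interval 7.35 to 7.42) and 4.53% in the others, or 7.003% and 4.09% after correction. Medians were 6.87% and 3.92%, and the windows were above the others on 19 of 19 autosomes, by 2.53 to 3.22 percentage points. As called in replicate 1, HC/CH exceeded HM/MH in 10716 of the windows (59.6%), compared with 47.0% of the other windows. The windows held 0.760 HM/MH calls per HC/CH call in replicate 1 and the other windows 0.887. After correction for miscalls the order turned, with 0.456 in the windows and 0.386 in the others. This turn rests on call rates from few duplex sites, 2 of MM and 1 each of HM, HC and CH. The corrected value of the other windows in replicate 2 was 0.4842, so the corrected order is uncertain. HH, with hmC on both strands, was 0.705% of replicate 1 calls in the windows and 0.477% in the others, or 0.220% and 0.0403% after correction. These corrected levels are uncertain, since 0.709% of the calls at the 2 MM duplex sites of replicate 1 were HH. Over all windows tested in replicate 1, corrected HH was 0.000126%.

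**Figure D1:**
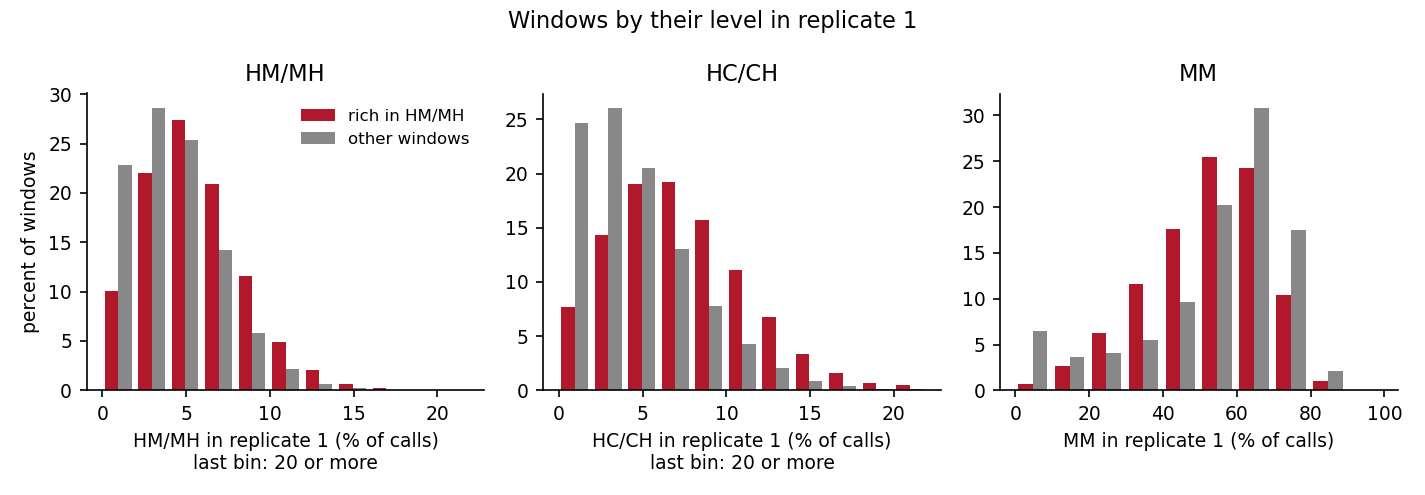
Percent of windows (y axis) by their HM/MH, HC/CH and MM level in replicate 1 (x axis, percent of calls), for the 17967 windows rich in HM/MH in replicate 2 (red) and the 369469 other windows (grey). Bins are 2 percentage points wide for HM/MH and HC/CH and 10 for MM. The red bars are shifted to higher HM/MH and HC/CH, and in MM they are lower than the grey bars at both ends.

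MM did not separate the windows in 1 direction. Summed over windows, MM was 51.5% of replicate 1 calls in the windows rich in HM/MH and 50.7% in the others, but the medians ran the other way, at 54.5% and 60%. Without promoter windows, an alternative added after the data were seen, the sums were 52.0% and 55.0%, also the other way. MM was above the others on 12 of 19 autosomes. What set the windows apart was the middle of the range: MM lay between 20% and 60% in 10950 of them (60.9%), compared with 39.4% of the other windows. MM under 20% was found in 3.36% of the windows and 10.1% of the others, and MM of 70% or more in 11.5% and 19.6%. The sums of CC were 23.8% and 28.8% and the medians 18.5% and 14.8%, so CC also changed sign between sum and median. MC/CM was 10.9% and 11.4%. As a share of the MM, HM and MH calls alone, HM/MH was 9.82% in the windows and 7.35% in the others.

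Each window was then tested in replicate 1 with an exact binomial test, two-sided, against the rate of all 1476741 windows tested there, with Benjamini-Hochberg adjustment over all of them and a threshold of 0.05. HM/MH passed as higher in 420 of the 17967 windows (2.34%), beside 0.465% of all windows tested and 0.793% of those with the minimum in both replicates. It passed as lower in 8 windows (0.0445%), beside 0.599% and 1.96%. HC/CH passed as higher in 2461 windows (13.7%), beside 2.43% and 4.53%, and as lower in 6 (0.0334%), beside 0.535% and 1.7%. MM passed as higher in 3001 windows (16.7%), beside 23.6% and 27.2%, and as lower in 4815 (26.8%), beside 13.9% and 22.7%. Of the 420 windows with higher HM/MH, 104 also had higher HC/CH. These p-values cover counting error only, and they treat calls of 1 fragment as independent. The 420 windows had between 8.27% and 25.3% HM/MH in replicate 1 and a median of 132 calls, and smaller excesses were not detectable as such at this depth.

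The replicate 1 level climbed with the replicate 2 level over the whole range, with no step at 10%. Windows with no HM/MH call in replicate 2 had 3.396% HM/MH and 3.502% HC/CH in replicate 1. Those of 7.5% to 10% had 5.22% and 6.69%. Inside the threshold, HM/MH rose with the bin from 5.43% to 5.76%, 6.01% and 6.23%, and HC/CH from 7.14% to 7.59%, 7.99% and 8.15%. Corrected HM/MH was 1.07% in the windows with no call and 3.87% in the 567 windows of 20% or more. The 5350 windows just outside the threshold (9% to under 10%) had 5.42% HM/MH, 6.98% HC/CH and 51.9% MM in replicate 1. The 5447 just inside it (10% to under 11%) had 5.37%, 7.05% and 51.7%.

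**Figure D2:**
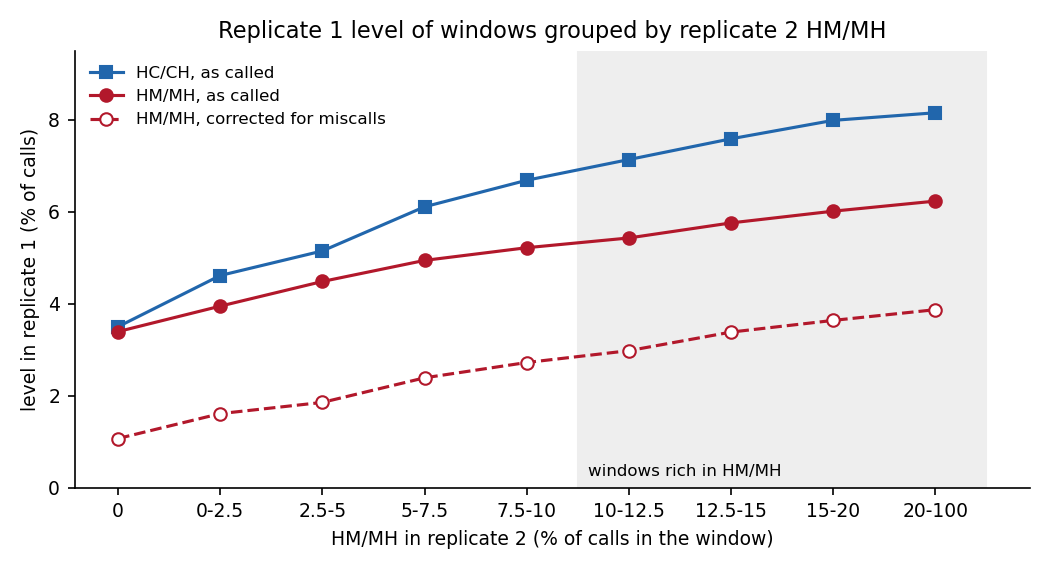
Replicate 1 level (y axis, percent of calls summed over windows) of windows grouped by their HM/MH level in replicate 2 (x axis, percent of calls), with the windows rich in HM/MH on the grey ground. HC/CH (squares) climbs from 3.502% to 8.15%, HM/MH as called (filled circles) from 3.396% to 6.23% and HM/MH corrected for miscalls (open circles) from 1.07% to 3.87%.

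Windows with more calls behind the choice held more in replicate 1. HM/MH was 5.35% in windows chosen on 25 to 29 calls, 5.58% on 30 to 39, 5.77% on 40 to 49, 6.0% on 50 to 74, 6.17% on 75 to 99 and 6.76% in the 26 windows chosen on 100 or more. The other windows had 4.17% with 25 to 29 calls, 4.20% with 40 to 49 and 1.65% with 100 or more.

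Single CpG sites within the windows kept part of the pattern. Sites with an HM/MH call in replicate 2 had 6.73% HM/MH in replicate 1 (95% interval 6.66 to 6.80), and sites of the same windows with no such call had 5.08% (5.02 to 5.14). Sites with 2 or more calls had 7.25%. HC/CH at these sites was 8.88% with a call and 6.48% without. In the other windows, HM/MH was 5.55% at sites with a call and 3.83% at sites without. The strand was partly shared as well. At 20440 sites with HM calls alone in replicate 2, HM was 54.6% of the HM and MH calls of replicate 1 (53.8 to 55.5). At 20322 sites with MH calls alone, HM was 45.5% (44.7 to 46.3).

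Around the windows, HM/MH fell towards the level of the flanks within a few kb. In replicate 1 it was 4.72% at 1 kb before the window, 4.45% at 2 kb and 4.29% at 10 kb, where windows around the other windows had 4.18%. HC/CH was 5.92% at 1 kb, 5.49% at 2 kb and 5.28% at 10 kb, the last beside 4.81% around other windows. Both states were still above the level around other windows at 10 kb, HC/CH by more than HM/MH. Few of the 18093 windows were seen to adjoin each other, but most right-hand neighbours lacked the minimum of sites and calls and could not be judged. Of the 6064 right-hand neighbours with that minimum, 439 (7.24%) were themselves rich in HM/MH, beside 4.64% of all windows. Window and neighbour were both chosen on replicate 2 calls, so this is a description. The share among neighbours of other windows was not computed. The runs of 2 or more windows numbered 430 and held 869 of the windows, and the longest had 3.

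**Figure D3:**
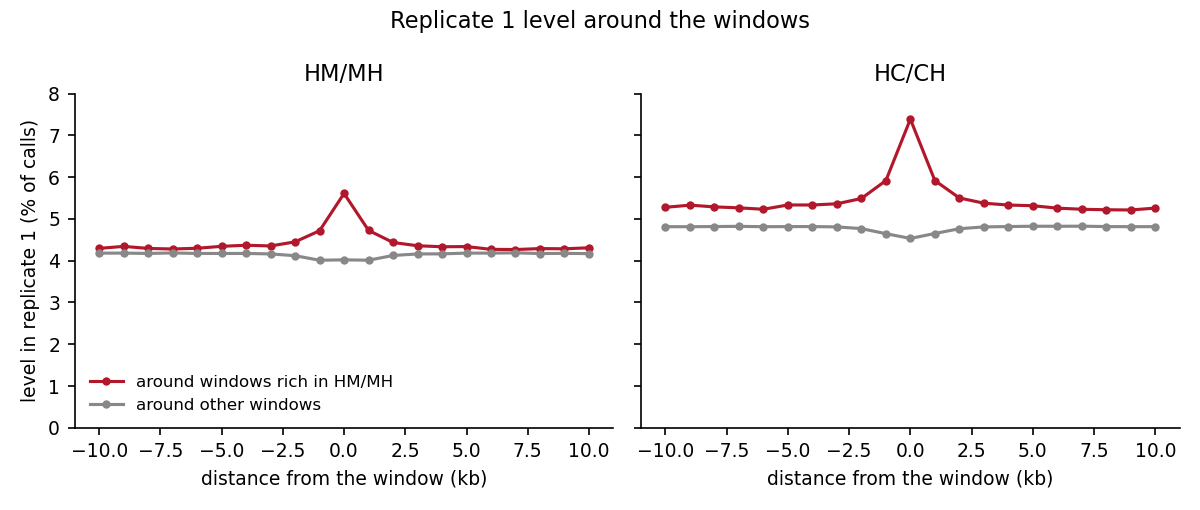
Replicate 1 HM/MH (left) and HC/CH (right) in percent of calls (y axes) by distance from the window in kb (x axes), around windows rich in HM/MH in replicate 2 (red) and around the other windows (grey). Both states peak in the window, at 5.61% and 7.39%, and both stay above the grey line out to 10 kb, HC/CH by more than HM/MH.

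The windows were spread over all annotations and were least frequent at promoters, where most CpGs of this genome are unmodified. Of the promoter windows, which lay mostly within 1 kb of the TSS of a protein-coding gene, 758 (2.72%) were rich in HM/MH. The share was 5.63% in exons (2368 windows), 5.25% in first introns (4362), 4.39% in other introns (4472) and 4.55% in intergenic DNA (6133). By distance to the nearest TSS, the share was 2.70% within 1 kb, 4.83% from 1 to 5 kb, 5.43% from 5 to 20 kb, 4.90% from 20 to 100 kb and 3.66% farther away. By the number of CpGs in the window, it rose from 2.71% at 4 to 6 CpGs to 6.44% at 20 to 29 and was 0.351% at 50 or more. Promoters made up 17.1% of the windows with 50 or more calls and 7.14% of all windows. The share that passed fell with the number of calls, and shares at matched numbers of calls were not computed. Windows rich in HM/MH had a median of 14 CpGs and 46.8% GC, the other windows 12 and 45.2%, and 16.5% and 15.6% of their bases were soft-masked as repeats. Of 864 windows that overlap an enhancer annotated by RefSeq, 63 (7.29%) were rich in HM/MH, beside 4.64% of all windows. These are not the active, primed and poised enhancer classes of the paper.

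**Figure D4:**
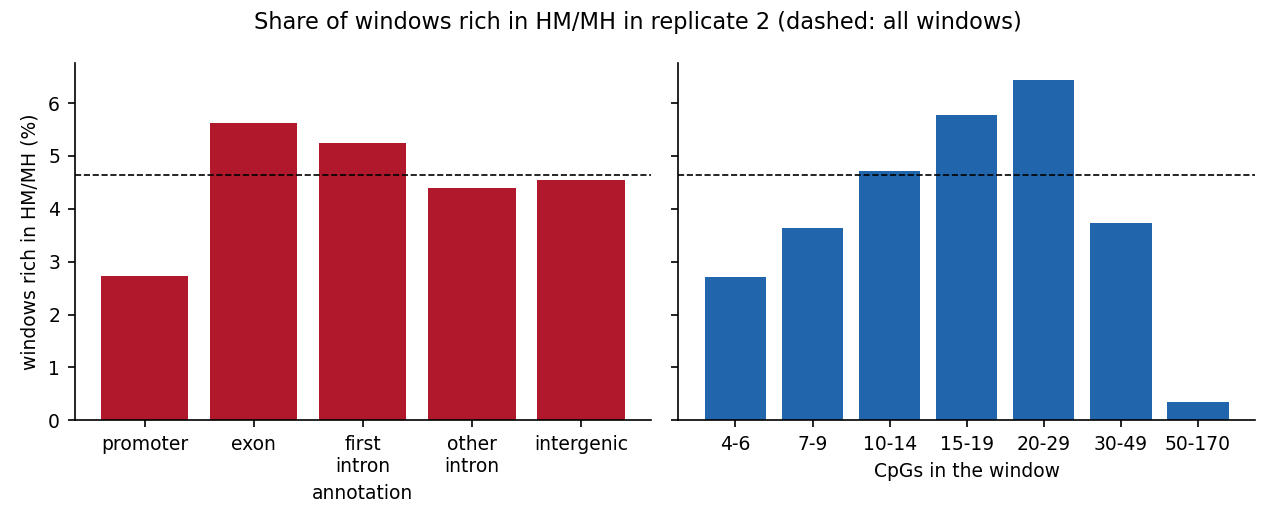
Percent of windows that were rich in HM/MH in replicate 2 (y axes) by annotation (left) and by the number of CpGs in the window (right), with the dashed line at the 4.64% of all windows. Exons and first introns and windows of 10 to 29 CpGs lie above the line, and promoters and windows of 50 or more CpGs lie farthest below it.

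In replicate 1, HM/MH was higher than in other windows of the same annotation in all 5 classes. The gap was widest at promoters, with 5.09% against 1.60%, and HC/CH there was 7.57% against 2.62%. The promoter windows rich in HM/MH were also far more methylated than other promoter windows, with MM at 41.6% against 15.8% and CC at 36.2% against 75.6%. In the other classes HM/MH was 5.51% to 5.79% in the windows and 4.19% to 4.49% in the rest, and HC/CH was 7.09% to 7.87% and 4.42% to 5.26%. MM in exons was 51.2% and 51.3%. In other introns it was 53.4% in the windows and 58.4% in the rest. HM/MH passed the test as higher in 2.92% of the promoter windows and 3.19% of the exon windows among those rich in HM/MH, and in 0.319% and 1.08% of the others. In first introns, other introns and intergenic DNA it passed in 1.78%, 2.5% and 2.22%, and in 0.733%, 0.768% and 0.644% of the others. Windows with more calls pass more easily.

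The level also varied with the bases next to the CpG. Of the 10 contexts, taken as the CpG with a base on either side and both strands together, ACGG/CCGT had the highest HM/MH in replicate 1 in the windows (6.24%), followed by CCGG (6.23%). GCGA/TCGC had the lowest (4.67%), followed by TCGA (4.76%). In the other windows these contexts had 4.61%, 4.20%, 3.45% and 3.59%, and all 10 contexts were higher in the windows rich in HM/MH.

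A total of 5931 of 17718 protein-coding genes held at least 1 of the windows in their body, and 361 held 5 or more. The gene models with the most were Gm20388 with 93 of 1750 windows and Fgfr2 with 53 of 716, but the annotated bodies hold 71 and 29 other protein-coding genes, so these counts are not those of single genes. Magi1, which encodes a scaffold protein of cell junctions, followed with 23 of 188 windows (12.2%), beside 4.64% of all windows. Its windows had 6.19% HM/MH in replicate 1 and the rest of its body 4.86%. Tshz2, a zinc finger homeobox gene, had 16 of 154 (10.4%), with 7.01% and 4.88%, and HC/CH at 9.11% and 5.50%. Ldlrad4, an inhibitor of TGF-beta signalling, had 17 of 153 (11.1%), with 5.07% and 4.75%. Msi2, an RNA-binding protein of stem cells, had 17 of 184 (9.24%), with 5.99% and 4.70%. Enox1 had 14 of 190 (7.37%) and the highest HM/MH in replicate 1 among these genes, with 7.66% against 5.16%. Wwox, a tumour suppressor at a fragile site, had 17 of 279 (6.09%), with 7.06% and 4.77%. Zfhx3, a large homeobox transcription factor gene, had 18 of 276 (6.52%), with 6.01% and 4.54%. Camta1, whose body holds 4 other protein-coding genes, had 18 of 338 (5.33%) and the smallest level in replicate 1, with 4.51% and 4.10%. A gene with more windows tested can hold more of them. These genes were picked for holding the most windows rich in HM/MH in replicate 2, so raised shares go with the choice. Per gene, at most 2 of these windows passed the test for higher HM/MH in replicate 1, and as many as 7 passed for HC/CH outside Gm20388, beside 2.34% and 13.7% of all the windows rich in HM/MH.

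Genes that write and remove DNA methylation held a few of the windows, and their shares are given beside the 4.64% of all windows. Tet1, Tet2 and Tet3 encode the oxidases of mC, and Tdg the glycosylase that excises products oxidized beyond hmC. Of 113 windows in these genes, 7 (6.19%) were rich in HM/MH, of which 5 lay in Tet1. Tet1 is the main oxidase gene of the family in embryonic stem cells. In the Tet1 window chr10:62812000-62812999, an exon, HM/MH was 12.3% of 81 calls in replicate 2 and 12.9% of 171 calls in replicate 1 (exact test, adjusted p = 0.00216). In chr10:62827000-62827999, an intron, it was 10.0% of 40 calls and 15.5% of 97 calls (exact test, adjusted p = 0.00556). The other Tet1 windows had 3.47% to 5.97% in replicate 1, and that at chr10:62809000-62809999 had 15.1% HC/CH there (exact test, adjusted p = 2.13e-05). The Tet2 window had 14.3% and 8.03% HM/MH and the Tet3 window 10.9% and 4.76%, neither past the threshold in replicate 1. Tdg held none.

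Among the methyltransferase genes and Uhrf1, 6 of 99 windows (6.06%) were rich in HM/MH, beside the same 4.64% of all windows. Dnmt3a, a de novo methyltransferase gene, held 2 of them, and the one in its first intron had 10.3% HM/MH in replicate 2 and 13.5% in replicate 1 (exact test, adjusted p = 0.0165). The other, in an exon, had 13.3% and 8.70% (exact test, adjusted p = 0.735). Dnmt3b, the gene of the related enzyme, held 2 as well, of which 1 had the minimum in replicate 1. There it had 16.7% HM/MH in replicate 2, 1.11% in replicate 1, and 15.6% HC/CH in replicate 1 (exact test, adjusted p = 0.0049 for HC/CH). The windows of Dnmt3l and Uhrf1 had 8.57% and 6.49% HM/MH in replicate 1 and did not pass.

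The formative and primed states follow naive pluripotency in development. The pluripotency genes held 10 of 222 windows (4.505%), and the formative and primed genes 6 of 95 (6.32%), beside 4.64% of all windows. Nr5a2, an orphan nuclear receptor gene, held 4 of the first, with 2.27% to 11.8% HM/MH in replicate 1, the highest of them past the threshold (exact test, adjusted p = 0.0246). Esrrb held a pair of adjoining windows, with 14.9% and 13.1% in replicate 2 and 7.96% and 5.41% in replicate 1. The first of these had 15.9% HC/CH in replicate 1 (exact test, adjusted p = 0.00405). Otx2, a transcription factor gene of the primed state, held 1 window, with 14.8% of 27 calls in replicate 2 and 15.2% of 92 calls in replicate 1 (exact test, adjusted p = 0.0099). Lef1, a nuclear partner of beta-catenin, held 4, with 1.69% to 10.5% in replicate 1, none past the threshold.

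The shares of other lists are read beside the 4.64% of all windows. Genes typical of blood cells had 21 of 323 windows rich in HM/MH (6.50%). The zinc fingers had 147 of 3042 (4.83%), the germline genes 6 of 122 (4.92%), the imprinted genes 17 of 414 (4.11%) and the collagens 44 of 1088 (4.04%). The shares were smaller for vomeronasal receptors, with 5 of 139 (3.60%), olfactory receptors, with 15 of 525 (2.86%), clustered protocadherins, with 2 of 108 (1.85%), and the Hox clusters, with 2 of 143 (1.40%). The genes of the 2-cell stage had 0 windows with the minimum of sites and calls. Of the windows rich in HM/MH with the minimum in replicate 1, HM/MH passed as higher there in 2 of 7 for the TET and TDG list, 5 of 147 for the zinc fingers, 2 of 43 for the collagens, 1 of 17 for the imprinted genes and 1 of 21 for the blood cell genes, beside 2.34% of all the windows rich in HM/MH, and in 0 of the windows of the germline, protocadherin, receptor and Hox lists.

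The 20 windows with the highest lower bounds of HM/MH in replicate 2 had 26.0% to 40.6% HM/MH there, from 8 to 13 HM/MH calls among 26 to 50. In replicate 1 they had 1.11% to 13.9%, with a median of 6.46%. Since the windows were picked as the extremes of replicate 2 on few calls, a lower level in the other library goes with the choice and is no result. Of the 20, 17 lay above the replicate 1 rate, 3 reached 10%, 5 had an unadjusted p under 0.05 and 0 passed the exact binomial test after adjustment. Of all the windows rich in HM/MH, 66.3% lay above that rate and 8.02% reached 10%. In the same test, 15.2% of them were higher at an unadjusted p under 0.05, beside 6.59% of the other windows, and 2.34% passed after adjustment. None was a promoter window, 10 were intergenic, 7 lay in introns and 3 in exons.

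Window w1, the highest, had 13 HM/MH calls among 32 in replicate 2 and 2 among 52 in replicate 1. Window w3 had 10 among 27 and 1 among 90, the lowest of the 20 in replicate 1. In w8 all 9 HM/MH calls of replicate 2 were HM, with hmC on the plus strand. Window w8, at chr3:146562000-146562999 and overlapping Gm36259, had the highest level of the 20 in replicate 1, at 13.9% of 79 calls (exact test, adjusted p = 0.0618). Window w16, at chr7:36651000-36651999 between genes, had 30.8% and 11.8% (exact test, adjusted p = 0.113). Both lay above the replicate 1 rate without passing the threshold, but as a share of the MM, HM and MH calls w8 had 28.9% and passed (exact test, adjusted p = 0.0264).

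HC/CH passed the same test as higher in 5 of these 20 windows, beside 13.7% of all the windows rich in HM/MH and 4.53% of all windows with the minimum in both replicates. Window w13, in an intron of Vmp1, a gene of autophagy, had 26.0% HM/MH and 26.0% HC/CH in replicate 2. In replicate 1 it had 8.70% and 11.96% (exact test, adjusted p = 0.00306 for HC/CH). Window w10, in an intron of Gm30624, had 12.6% HC/CH in replicate 1 (exact test, adjusted p = 0.000632). Window w20, in the first intron of Arid1b, a subunit gene of a chromatin remodeller, had 13.2% (exact test, adjusted p = 0.0176). The intergenic windows w9 and w16 had 13.6% and 12.7% HC/CH (exact test, adjusted p = 0.00947 and 0.0328).

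The 420 windows with higher HM/MH in replicate 1 were high in both libraries, with 12.7% HM/MH in replicate 1 and 13% in replicate 2 when summed. Being chosen on both, they are a description. Their HC/CH was 8.78% and 8.46% and their MM 49.7% and 52.3%. Exon windows made up 17.9% of them and 13.1% of all windows rich in HM/MH, promoter windows 5.24% and 4.19%, and first introns 18.3% and 24.1%. The 1440 windows at 10% or more in both replicates lay closer to all the windows. Exons made up 13.4% of these 1440, promoters 3.403% and first introns 22.64%. Median calls in replicate 1 were 132 for the 420, 96 for the 1440 and 107 for all windows rich in HM/MH. Windows with more calls pass more easily, and a preference for exons apart from depth was not tested.

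The 12 with the smallest p-values in replicate 1, chosen after their values were seen, had 11.97% to 25.3% HM/MH there. Window r1, at chr1:182023000-182023999 and 3510 bases from a TSS of Enah, an actin regulator gene, had 18.2% of 33 calls in replicate 2 and 25.3% of 75 calls in replicate 1. The 2 CpGs in capitals in its sequence had 5 HM/MH calls among 9 and 4 among 10 in replicate 1. Window r2, in an exon of the kinase gene Dyrk3, had 13.1% of 99 calls and 11.97% of 376 calls, over 15 and 43 CpG sites. At the replicate 1 sites with 10 or more calls it had 11.7%, which no longer passed (exact test, adjusted p = 0.051). Window r3, in the first intron of the phosphatidylinositol transfer protein gene Pitpnc1, had 11.1% of 108 calls and 13.99% of 243 calls. The intergenic window r4, at chr6:52415000-52415999, had 16.4% of 55 calls and 15.4% of 188 calls. It also had 18.2% and 12.2% HC/CH. The remaining windows lay in Ank3, Arhgef3, Aldh1b1, Dock3, Erc2, Ppp6r3 and Sephs1 and between genes near Wwp2, with 10.5% to 17.1% in replicate 2.

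**Figure D5:**
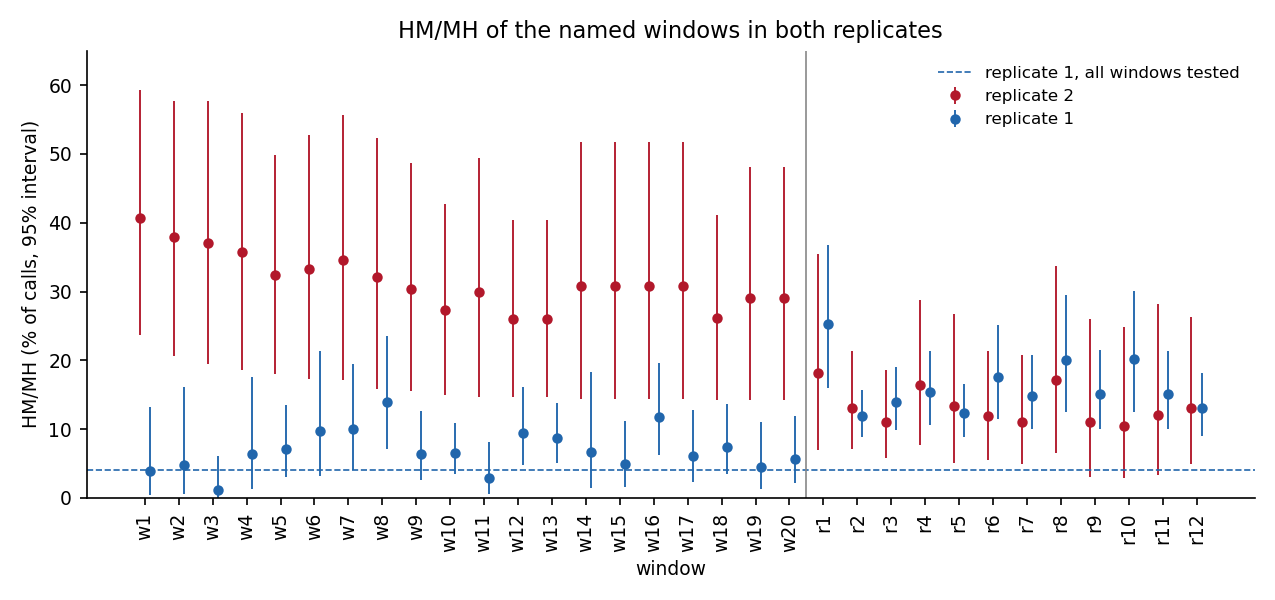
HM/MH in percent of calls (y axis, bars are 95% Clopper-Pearson intervals) of 32 windows (x axis) in replicate 2 (red) and replicate 1 (blue), with the dashed line at the replicate 1 rate of 4.09%. Windows w1 to w20 had the highest lower bounds in replicate 2 and lie at 1.11% to 13.9% in replicate 1, and r1 to r12 were picked on replicate 1 and lie at 11.97% to 25.3% there.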

How the data were processed

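SCoTCH-seq libraries of 2 passages of E14 cells, taken as replicates 1 and 2 of 1 condition by their labels, were compared window by window. The authors trimmed reads with Cutadapt 4.6, used BSBolt for alignment to GRCm38 and Picard 3.1.1 against duplicates, and read 1 state per CpG and read pair. The deposited values are, per CpG site, the counts of the states, the depth and the percent of calls. Sites under 5 calls, in blacklisted regions or with repeated calling errors had been dropped. The percent column was checked against the counts and not used, and no sample was pooled.

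Counts were summed over windows of 1 kb with edges at multiples of 1000 bases. The windows, the gene lists and the tests were chosen with earlier results of these data known. Call rates came from 25 duplex sites per replicate, the true state of a site being its most frequent call. Of these, 15 were CC, 2 each MM, MC and HH, and 1 each CM, HC, CH and HM. With 0 sites of MH, its rates were those of HM read from the other strand. Corrected levels solve the linear equations of the call rates, with negative solutions set to 0. A window took the annotation (GENCODE vM21) that held most of its covered sites, with ties going to promoter (1 kb either side of a protein-coding TSS), exon, first intron, other intron and intergenic in this order. Bases were read from GRCm38.p6 (RefSeq), in which all sites fell on the C of a CpG. The windows named are the 20 with the highest lower 95% bound of HM/MH in replicate 2 that had the minimum in replicate 1 and were not on chromosome 18. The genes named are the 10 protein-coding ones with the most windows in their body and the members of 14 lists. Intervals are exact Clopper-Pearson intervals that cover counting error only. The steps were tested on simulated data. Python 3.11.15, NumPy 2.4.6, pandas 2.3.3, SciPy 1.17.1, pysam 0.24.0 and Matplotlib 3.10.9 were used. Alternatives were other thresholds, minimums, window edges, sites, denominators, annotations and the roles of the replicates. Sex chromosomes were left out of the choice, and transcription was not analysed here.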

Additional observations from a re-analysis of the deposited data

Results flagged for a closer look

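Chromosome X was outside the choice of windows, but some of its windows met the same limits. Only 227 of its windows had the minimum of sites and calls in replicate 2, where chromosome 19 alone had 12117. Of the 227, 13 held HM plus MH at 10% or more, which is 5.73% (95% Clopper-Pearson interval 3.08 to 9.59). The interval covers the 4.64% of the autosomal windows. In replicate 1, 12 of the 13 windows had 7.44% HM/MH and 8.57% HC/CH, against 2.08% and 3.15% in 184 other windows of the chromosome. The number of windows is small, and no test was run.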

How the results depend on the processing

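HM/MH and HC/CH stayed higher in the windows than in the other windows, and passed as higher more often, under every alternative run for them, while MM passed as higher less often under every one. The summed MM level was above that of the other windows in 9 of 11 settings, and below it with only sites covered in both replicates (51.9% against 52.2%) and without promoter windows (52.0% against 55.0%). With a threshold of 15%, 3158 windows remained, with 6.05% HM/MH, 8.02% HC/CH and 51.0% MM in replicate 1. With 20%, 577 did, with 6.23%, 8.15% and 50.95%, 9.70% of them higher for MM against 27.2% of the others, and 4.51% were promoter windows against 7.14% of all windows. With a minimum of 50 calls, 2037 did, with 6.04%, 8.29% and 48.3%. Of these, 4.66% passed for HM/MH and 25.2% for HC/CH, against 1.14% and 6.66% of the others, and 4.96% were promoter windows, against 17.1% of all windows with 50 or more calls. Edges moved by 500 bases gave 51.7% MM. Replicate 1 sites with 10 or more calls gave 5.56%, 7.14% and 51.9%. Only sites covered in both replicates gave 5.94%, 7.72% and 51.9%, with 0.976% passing for HM/MH and 5.66% for HC/CH on fewer calls per window, against 0.217% and 1.47% of the others. Calls from 2 or more sites gave 7.46% HC/CH and 51.5% MM. Corrected levels were 3.19%, 7.003% and 55.7%, and HM/MH was 9.82% of MM, HM and MH calls. With the roles of the replicates swapped, 63327 windows were chosen in replicate 1, and the 12849 of them with the minimum in replicate 2 had 4.45% HM/MH, 6.18% HC/CH and 62.7% MM in replicate 2, against 2.72%, 4.16% and 55.7% in the others, with 0.615% passing for HM/MH and 1.85% for HC/CH at its lower depth, against 0.147% and 0.732%. Promoters of 2 kb either side held 7.80% of the windows, against 10.86% of all windows. The cause of the shifts between settings was not tested. Windows r2 and r12 lost the call with sites of 10 or more calls, at 11.7% and 10.5% HM/MH (exact test, adjusted p = 0.051 and 0.0665), and w8 passed as a share of MM, HM and MH calls (0.0264). No paired analysis was possible because the labels give a single group. Leaving out a replicate gives no value, since the choice needs one and the reading the other. Depth limits the choice, since 29.2% of the windows rest on 3 HM/MH calls.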
